A study of Arabidopsis thaliana with 16 samples.

Results

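The genes described here had lower transcript levels after ethylene and after auxin in wild-type Arabidopsis thaliana roots. They were selected on the wild-type values of these arrays: a probe set, which reports the level of a transcript, had to exceed 4 (log2) on 2 or more of the 16 arrays, and its mean had to be lower by at least 0.7 both in Col ethylene against Col air and in Col IAA against Col mock. Of 22746 non-control probe sets 14244 passed the first condition, and 155 passed all of them. Expansins, xyloglucan endotransglucosylases/hydrolases, TBL genes, pectin enzymes and dirigent genes accounted for 11 of these and were left out, which leaves 144 members. The annotation supplied gave 1 locus for 70 members (69 loci, since AT1G22330 had 2 probe sets), several genes for 4 and no gene for 70. The 70 members with no gene could not be screened for the families left out.

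Roots of seedlings grown for 3 days in the dark at 22 °C were used in 2 experiments with 8 groups of 2 arrays. In all groups, 3 days of cold at 4 °C (stratification) came before growth. In the ethylene experiment, the wild type Col-0 (Col) and the mutant aux1-7 (aux1) received either hydrocarbon-free air or 10 ppm ethylene for 4 h. In the auxin experiment, Col and the mutant ein2-5 (ein2) were sprayed with 0.01% ethanol (mock) or with IAA at 1 µM in 0.01% ethanol. They were then left in darkness for 4 h. IAA is indole-3-acetic acid, the main natural auxin. Each mutant is 1 allele, and each was studied in 1 of the experiments. The series calls the 2 arrays of a group biological replicates, and the p-values below measure the spread between such arrays. Whole roots were measured, so fewer cells of a type and less RNA per cell cannot be told apart.

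Ethylene is a gaseous hormone whose receptors act through the membrane protein EIN2 to control transcription, and ein2 mutants are insensitive to it. Auxin enters root cells partly through the influx carrier AUX1, is sensed by TIR1/AFB receptors that lead to the breakdown of Aux/IAA repressors, and restrains root elongation at raised levels. Ethylene raises auxin synthesis and transport in the root tip, and both hormones slow the elongation of root cells. Growing root cells remodel walls of cellulose, xyloglucan and pectin, and the genes described here include several whose products act at that wall. The study's design asks how far each response depends on the other hormone: ethylene was applied where auxin uptake was impaired, and IAA where ethylene signalling was blocked.

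The values are the deposited GCRMA levels on a log2 scale, where a difference of 1 is a doubling, and they ran from 1.24 to 15.4 over all arrays. Array medians lay between 5.87 and 6.0, the correlation of the 2 arrays of a group between 0.993 and 0.998, and the replicate SD was 0.307 in Col air and 0.187 to 0.251 in the other groups. PYK10, a beta-glucosidase abundant in roots, lay between 13.6 and 14.3 on all arrays, and EXPA7, an expansin of root hairs, between 7.43 and 10.2. Of 39 marker loci listed these 2 alone had a probe set with a single gene, so none of the 5 markers of other organs could be read. AUX1 and EIN2 had none either, and their own transcripts are not analysed here.

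In Col, the 2 differences that chose the members are given as a description and were not tested. The ethylene difference had a median of -1.19 over the 144 members and reached from -3.73 to -0.70, and the IAA difference had a median of -1.03 and reached from -3.92 to -0.70. A difference of at least 0.7 downward was found for 643 probe sets after ethylene (4.51% of those tested) and for 424 after IAA (2.98%). The 155 probe sets in both lists (1.09% of those tested) are 24.1% of the ethylene list and 36.6% of the IAA list. Both Col ethylene arrays lay below both Col air arrays for 141 members (21.1% of all tested probe sets did so), and both Col IAA arrays below both Col mock arrays for 133 (28.1%). The groups overlapped in one or the other contrast for the remaining 12 of 144 members.

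The nearest probe sets on both sides of the limit were sought among those with 1 locus. Closest inside was AT3G10080, a germin-like cupin with -0.70 after ethylene and -0.91 after IAA. AT1G23205 followed with -1.15 and -0.70, and AT2G19880, a glucosylceramide synthase, with -0.89 and -0.71. Just outside lay AT2G31945 with -0.70 (before rounding, above the limit) and -0.99, AT3G48940 with -0.69 and -0.96, and AT5G23750 with -0.92 and -0.68. For 6 of 144 members the 2 arrays of a Col control group stood more than 2 apart, and the choice of some of these rests on 1 array. The widest gap was in Col mock, where probe set 264474_s_at read 11.60 and 3.70 and 255997_s_at 10.67 and 2.63. Neither has a named gene, and a single high mock array put both among the members. In all 16 arrays 104 members exceeded 4, while 11 members did so in fewer than 8 arrays. A group mean under 2.55, the highest lower quartile of any array and thus near background, occurred for 3 members: AT1G14120 and BGLU28 in Col ethylene or aux1 ethylene, and probe set 248343_at in Col IAA.

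**Figure D1:**
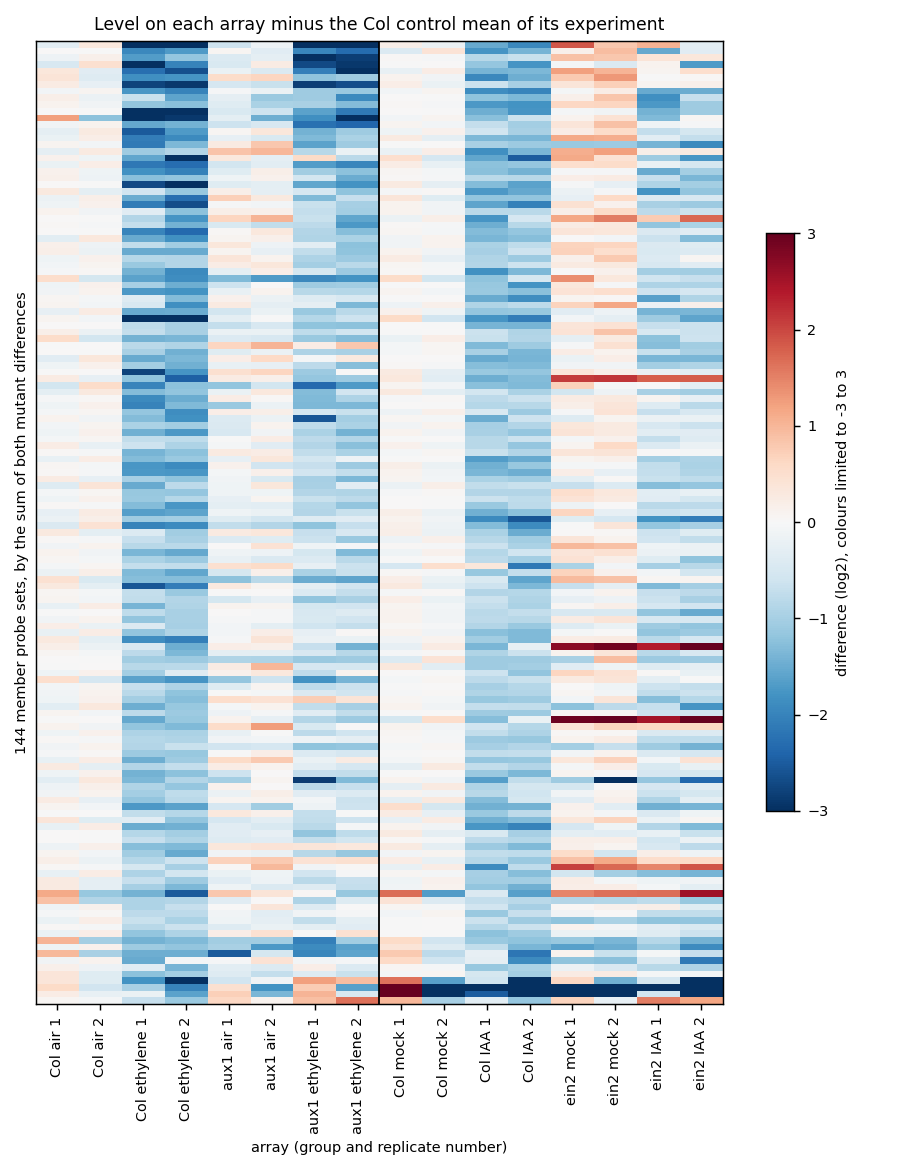
Level of each of the 144 members (one line per probe set) on each of the 16 arrays, minus the Col control mean of the same experiment, in log2 units with colours limited to -3 and 3. Members are ordered by the sum of the ethylene difference in aux1 and the IAA difference in ein2, lowest at the top. The Col ethylene and Col IAA columns are blue by the choice of members, and the aux1 ethylene and ein2 IAA columns, which took no part in the limit of -0.7, are mostly paler blue.

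The ethylene difference in aux1 and the IAA difference in ein2 took no part in the limit of -0.7, and these were tested. The mutant arrays did count toward the condition of exceeding 4 on 2 arrays: 141 members met it on the 8 Col arrays alone, and AT3G28750, 249895_at and 252574_at only with mutant arrays. Most members also stood lower after treatment in the mutants. In aux1 the median difference of the members was -0.66 (range -3.10 to 1.42) beside -0.01 over all 14244 probe sets, and 134 of 144 members (93.1%) had a difference below 0, against 52.7% of all probe sets. These include 6 members that did not exceed 4 on any aux1 array (AT1G14120, BGLU28, AT3G28750, CML38, 249037_at and 252574_at), all with a difference below 0 and none called in aux1; for the first 3 this held on all 8 arrays of the ethylene experiment, so that their ethylene differences lie between low levels. In ein2 the median was -0.70 (range -2.20 to 1.15) beside -0.01 for all, and 135 members (93.8%) were below 0, against 52.1%. Over the 141 members alone, the medians were -0.67 in aux1 and -0.69 in ein2, with 132 (93.6%) and 133 (94.3%) below 0. The median member level was 7.24 in aux1 air and 6.50 in aux1 ethylene, and 7.22 in ein2 mock and 6.53 in ein2 IAA. In Col the corresponding levels, which the rule shaped, were 7.36 in air, 6.02 in ethylene, 7.12 in mock and 6.01 in IAA.

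A probe set was called where limma's moderated test gave a Benjamini-Hochberg adjusted p under 0.05 over all 14244 probe sets. Ethylene lowered 55 members in aux1 (38.2%), where 3.8% of all probe sets were called lower. IAA lowered 56 members in ein2 (38.9%), where 1.3% of all were called lower. Of the 141 members above 4 on at least 2 Col arrays, 55 were called in aux1 and 55 in ein2. No member was called higher in aux1 (3.28% of all probe sets were) or in ein2 (1.9%), and at an unadjusted p under 0.05 the limma test found 0 members higher in aux1 and 0 in ein2. Without regard to a test, both treated arrays lay below both control arrays for 117 members in aux1 (81.2%, against 23.6% of all probe sets) and for 114 in ein2 (79.2%, against 25.1%), and above them for 3 and 2 members (19.3% and 22.1% of all).

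Both calls applied to 28 members (0.295% of all probe sets, 42 in number, had both), while 27 were called in aux1 alone, 28 in ein2 alone and 61 in neither. The 2 mutant contrasts share no array, but all calls share 1 estimate of the spread per probe set, taken over the 16 arrays, including the Col arrays that chose the members. A call in one mutant and not in the other does not show that the 2 responses differ, and that difference was not tested. Many of the calls were lost when a single array was left out. Omitting an aux1 or ein2 array leaves 1 array in its group. Fewer of all probe sets were then called lower in that mutant as well. Whether the members lost a larger share of their calls than other probe sets was not tested. The aux1 count dropped to 25 when the second aux1 air array was omitted and to 29 when the second aux1 ethylene array was. The ein2 count was 22 and 20 without ein2 mock replicates 1 and 2, and 23 and 26 without ein2 IAA replicates 1 and 2. The count called in both mutants was 9 to 12 without any one ein2 array, 18 and 11 without the first and the second aux1 air array, 9 without the second aux1 ethylene array and 18 without either Col mock array.

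**Figure D2:**
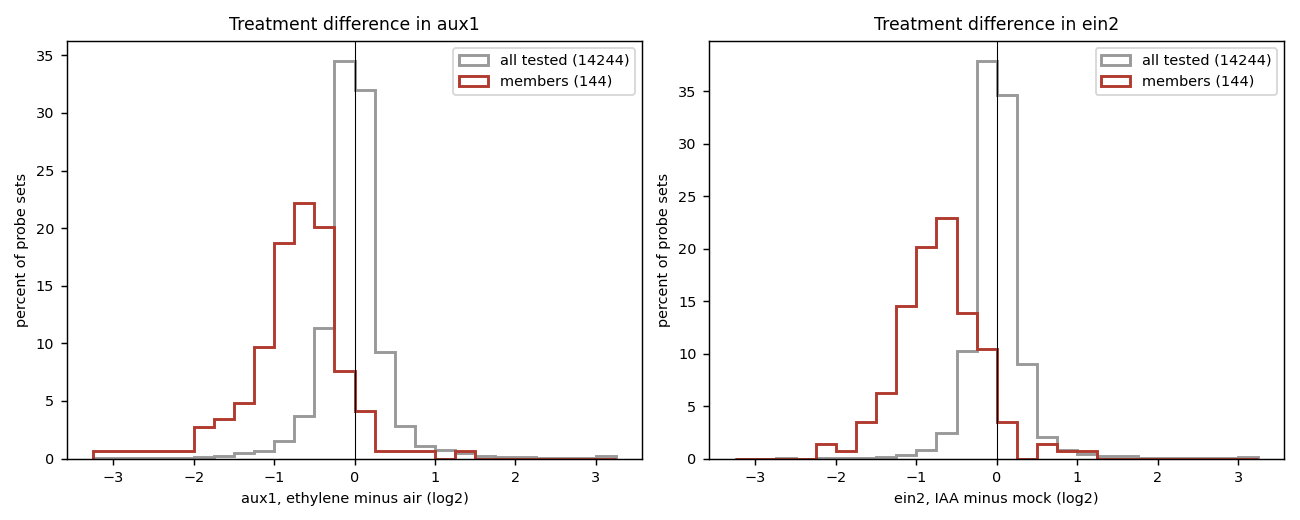
Distribution of the log2 differences treated minus control in aux1 (ethylene) and in ein2 (IAA), for the 144 members and for all 14244 probe sets tested. The members' medians are -0.66 in aux1 and -0.70 in ein2, and those of all probe sets are -0.01 in both.

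**Figure D3:**
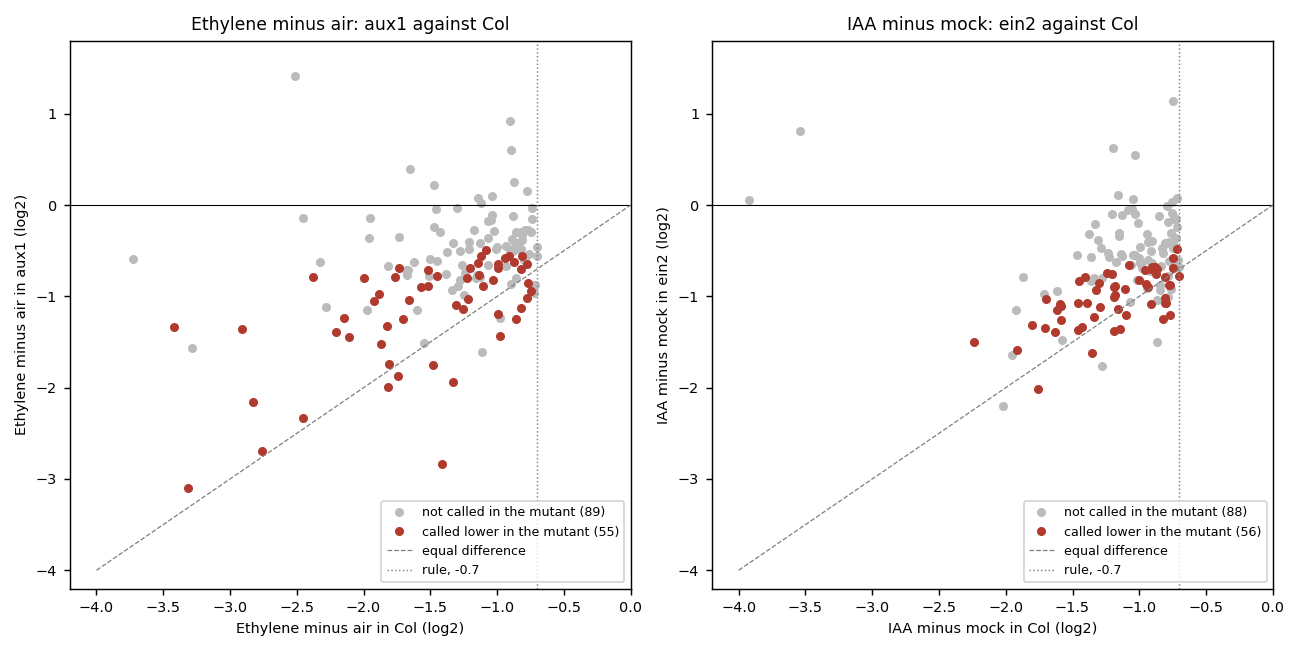
Each member's log2 difference in the mutant (vertical axis) against that in Col (horizontal axis), for ethylene in aux1 at left and for IAA in ein2 at right. Red points are members called lower in the mutant (55 in aux1 and 56 in ein2), grey points are not called, the dashed line marks equal differences and the dotted line the rule's limit of -0.7. All points lie left of the dotted line by the choice of members, and most lie above the dashed line. No test of mutant against Col is given, because selection on the Col values pushes points to the left.

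Roles below are background knowledge about the loci, not part of the deposited annotation, and they were available for 53 of the 69 loci. The groups of members by role were made after the values had been seen, so their counts are descriptions, and each is set against the 38.2% and 38.9% of all members called.

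Genes of the cell wall made up 8 of the members with a role. Of these, 4 were called lower in aux1 and the same 4 in ein2: GH9B13, AT4G25250, THE1 and AT3G22070, the last a proline-rich protein. GH9B13 encodes an endoglucanase of glycosyl hydrolase family 9, a group of enzymes that act on glucan chains such as cellulose. It read 9.76 and 9.73 in Col air, 7.77 and 7.42 in Col ethylene, 9.78 and 10.05 in aux1 air and 8.87 and 8.47 in aux1 ethylene. In the auxin experiment it read 9.82 and 9.70 in Col mock, 8.45 and 8.59 in Col IAA, 10.13 and 10.10 in ein2 mock and 9.32 and 9.43 in ein2 IAA. The treated arrays lay below the control arrays in every pair of groups, which the choice of members favoured in Col. Both untreated mutants were above Col. In aux1 its level fell by 1.24 ± 0.16 (adjusted p = 0.000504), and in ein2 it fell by 0.74 ± 0.16 (adjusted p = 0.0254). The ein2 call was lost without any one of the 4 ein2 arrays, and the aux1 call in the fit on the 4 aux1 arrays (adjusted p = 0.0723).

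AT4G25250 encodes a pectin methylesterase inhibitor, a protein that blocks the enzymes that strip methyl groups from pectin. Its levels were 9.46 and 9.73 in Col air, 7.50 and 6.93 in Col ethylene, 9.57 and 9.52 in aux1 air and 8.92 and 8.59 in aux1 ethylene. They were 9.44 and 9.22 in Col mock, 7.75 and 7.30 in Col IAA, 9.79 and 9.45 in ein2 mock and 8.35 and 8.25 in ein2 IAA in the other experiment. Every treated array lay below every untreated array of the 3 genotypes, an order that the choice of members favoured in Col. The level fell by 1.31 ± 0.21 (adjusted p = 0.0055) in ein2. That in aux1 fell by 0.78 ± 0.21 (adjusted p = 0.0497), a call so close to the limit that it was lost in 16 of the alternative settings, among them the omission of any of 12 arrays, Col air, aux1, Col mock and ein2 arrays each. In ein2 the call was lost without ein2 mock replicate 1 or ein2 IAA replicate 2 (highest adjusted p = 0.0619).

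THE1 (THESEUS1) is a receptor-like kinase of the CrRLK1L family that senses the state of the wall and restrains elongation when cellulose synthesis is impaired. It read 9.71 and 9.79 in Col air, 8.65 and 8.61 in Col ethylene, 9.73 and 9.96 in aux1 air and 9.34 and 9.24 in aux1 ethylene. After mock and IAA it read 9.64 and 9.67 in Col mock, 8.92 and 8.95 in Col IAA, 9.58 and 9.77 in ein2 mock and 9.23 and 9.16 in ein2 IAA. Its replicates were close together, and the shifts were modest. Treated and control arrays did not overlap in aux1 or ein2, nor in Col, where the choice of members favoured this. THE1 fell by 0.56 ± 0.11 (adjusted p = 0.0091) in aux1 and fell by 0.48 ± 0.11 (adjusted p = 0.0355) in ein2. The aux1 call was lost when replicate 2 of either aux1 group was omitted, and the ein2 call without any one Col mock, Col IAA or ein2 array. Fits on the 8 arrays of the ethylene experiment and on the 4 aux1 arrays also lost the aux1 call. The fit on the 4 ein2 arrays lost the ein2 call.

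AT3G22070 fell by 0.69 ± 0.16 (adjusted p = 0.0269) in aux1 and fell by 0.86 ± 0.16 (adjusted p = 0.0146) in ein2. It lost the ein2 call without any one ein2 array, and the aux1 call without aux1 air replicate 2 or either aux1 ethylene array. The aux1 call was also lost in the fits on the 8 arrays of the ethylene experiment and on the 4 aux1 arrays. The other 4 wall genes were called in neither mutant. They include 3 further genes of the pectin methylesterase inhibitor family. AT5G51520, the lowest of them in Col after IAA, read 6.70 and 6.01 in ein2 mock and 4.50 and 3.82 in ein2 IAA. These groups did not overlap, but the difference of -2.20 ± 0.61 (adjusted p = 0.0887) did not pass. It passed in the fits on the 8 arrays of the auxin experiment (adjusted p = 0.0489) and on the 4 ein2 arrays (adjusted p = 0.0439), and without either Col ethylene array (adjusted p = 0.0497). In aux1 the same gene differed by -0.14 ± 0.61 (adjusted p = 0.954). AT3G47380 differed by -0.88 ± 0.25 (adjusted p = 0.0598) in aux1, and AT1G23205 by -0.77 ± 0.30 (adjusted p = 0.182).

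AT2G41810, which belongs to the DUF642 family of wall proteins, had its highest values in aux1 ethylene. It read 9.16 and 8.45 in Col air, 7.02 and 5.57 in Col ethylene, 8.23 and 8.69 in aux1 air and 10.03 and 9.73 in aux1 ethylene. Both aux1 ethylene arrays stood above all 6 other arrays of the experiment, and both Col ethylene arrays stood below them. The aux1 difference of 1.42 ± 1.24 (adjusted p = 0.616) did not pass. In the auxin experiment, where its replicates were far apart, it read 8.88 and 5.60 in Col mock, 6.64 and 3.94 in Col IAA, 7.86 and 5.81 in ein2 mock and 6.74 and 3.66 in ein2 IAA, with overlapping mock and IAA groups in Col and in ein2. Replicate 1 was the higher array in each of these 4 groups.

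Leucine-rich repeat proteins were 4 of the members, a class in which the repeats bind peptides or other proteins and which includes many receptor kinases. AT3G19320, an extracellular protein with such repeats, had the lowest summed Col difference of all members with a locus. Its levels were 6.44 and 6.43 in Col air, 2.96 and 3.08 in Col ethylene, 5.98 and 5.81 in aux1 air and 4.82 and 4.31 in aux1 ethylene. In the auxin experiment they were 6.28 and 6.26 in Col mock, 4.80 and 4.50 in Col IAA, 6.20 and 6.16 in ein2 mock and 4.85 and 5.21 in ein2 IAA. Treated and control arrays did not overlap in any pair of groups, and the Col ethylene arrays were the lowest. For the Col groups, the choice of members favoured this. AT3G19320 fell by 1.33 ± 0.17 (adjusted p = 0.000633) in aux1 and fell by 1.15 ± 0.17 (adjusted p = 0.00323) in ein2. Its ein2 call was kept in every alternative setting, and its aux1 call in all except the fit on the 4 aux1 arrays alone.

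Another 2 of these, the receptor-like kinases AT5G24100 and AT3G46400, were called in ein2. AT5G24100 read 7.02 and 7.13 in ein2 mock and 5.98 and 5.96 in ein2 IAA, and fell by 1.1 ± 0.23 (adjusted p = 0.025). AT3G46400 read 5.35 and 5.74 against 4.20 and 4.38, and fell by 1.26 ± 0.28 (adjusted p = 0.0346). Both calls were lost without any one ein2 array, and that of AT3G46400 also without either Col ethylene array. In aux1 AT5G24100 differed by -0.76 ± 0.23 (adjusted p = 0.0757) and AT3G46400 by -0.14 ± 0.28 (adjusted p = 0.863), the latter with overlapping groups of 4.92 and 4.77 in air and 4.45 and 4.96 in ethylene. AT5G23400, a leucine-rich repeat protein, was called in aux1, where it read 6.96 and 6.77 in air and 5.42 and 5.82 in ethylene and fell by 1.25 ± 0.17 (adjusted p = 0.000847). That call was lost in the fit on the 4 aux1 arrays (adjusted p = 0.0639). In ein2 AT5G23400 differed by -0.36 ± 0.17 (adjusted p = 0.364).

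Of 2 cytoskeletal genes, ACT11 was called in both mutants. ACT11 is an actin, the subunit of the filaments along which vesicles move in growing cells. It read 8.62 and 8.57 in Col air, 6.88 and 6.85 in Col ethylene, 8.53 and 8.75 in aux1 air and 8.02 and 7.89 in aux1 ethylene. With mock and IAA it read 8.57 and 8.36 in Col mock, 7.10 and 7.01 in Col IAA, 8.67 and 8.22 in ein2 mock and 7.76 and 7.56 in ein2 IAA. All treated arrays lay below all untreated arrays of the 3 genotypes, although in Col the choice of members favoured this. ACT11 fell by 0.69 ± 0.15 (adjusted p = 0.0171) in aux1 and fell by 0.79 ± 0.15 (adjusted p = 0.0146) in ein2. The calls were lost without aux1 air or aux1 ethylene replicate 2, and without ein2 mock replicate 1 or ein2 IAA replicate 2. ATMAP65-6, a protein that binds microtubules, differed by -0.03 ± 0.12 (adjusted p = 0.948) in aux1, where it read 8.89 and 9.06 in air and 8.97 and 8.93 in ethylene, and by -0.40 ± 0.12 (adjusted p = 0.0938) in ein2.

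**Figure D4:**
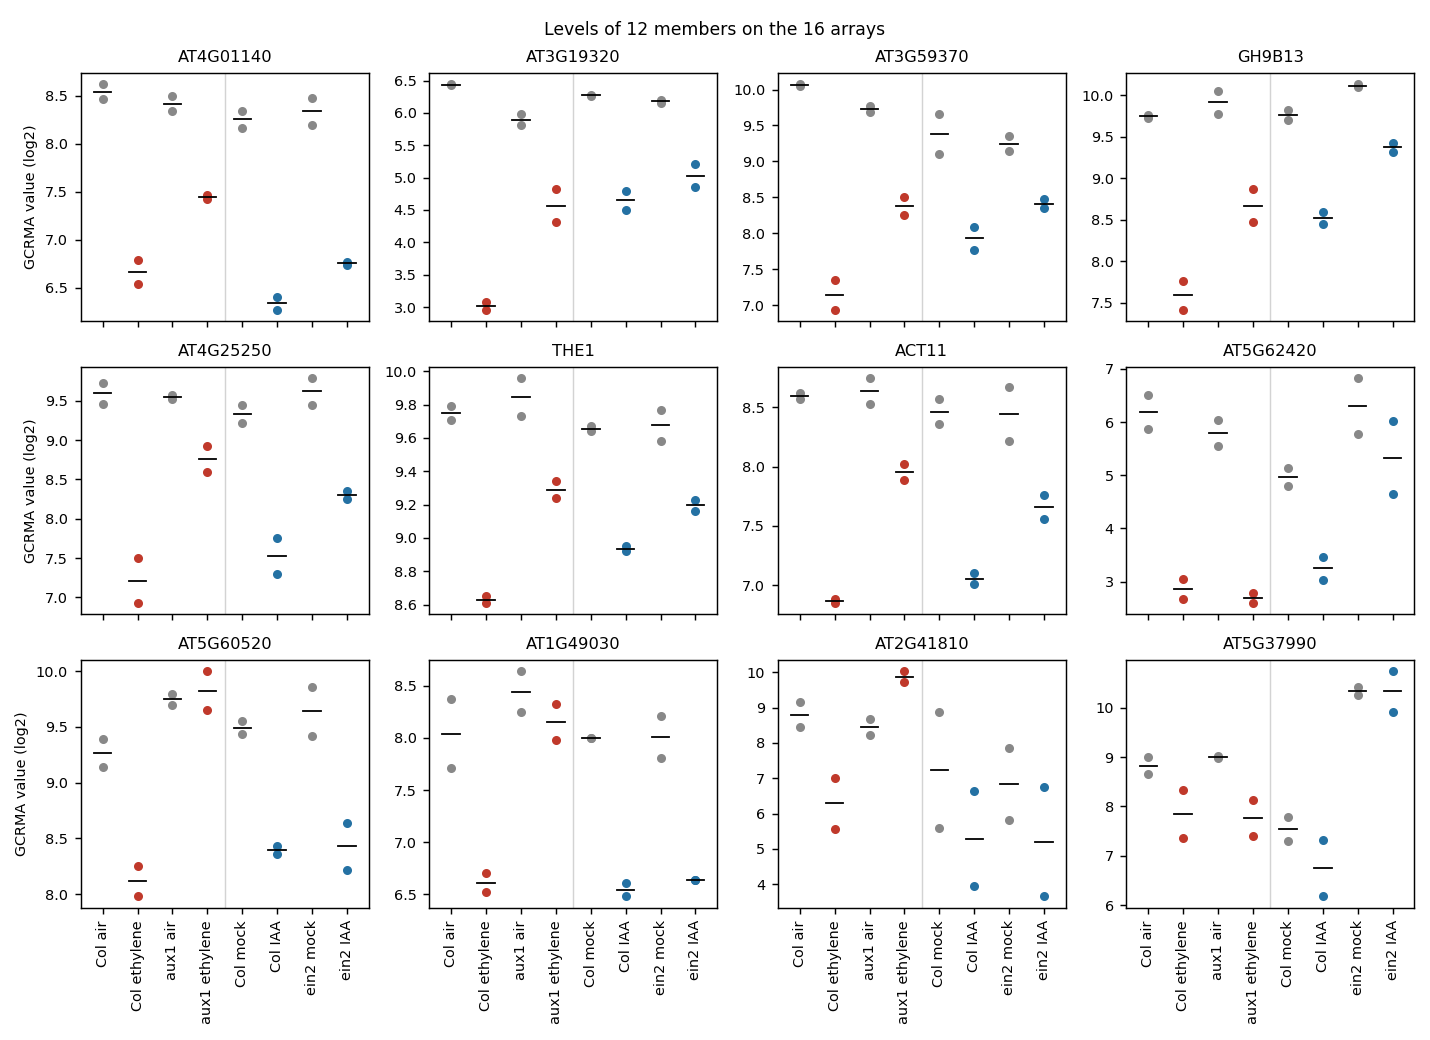
GCRMA level (log2) of 12 members on every array, as points, with a bar at the mean of the 2 arrays of each group. Grey points are untreated groups (air or mock), red points ethylene and blue points IAA, and the vertical axes differ between genes. GH9B13, AT3G19320, AT4G01140 and ACT11 are lower in all 4 treated groups, in Col by the choice of members. AT5G60520 reads 9.65 and 10.00 in aux1 ethylene, and AT5G37990 reads 9.92 and 10.74 in ein2 IAA.

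Genes of lipid binding and lipid synthesis were 8 of the members, with 1 called in aux1, 3 in ein2 and none in both. AT1G73780, of the lipid-transfer protein family of small secreted proteins that bind lipids, read 6.64 and 6.79 in aux1 air and 4.96 and 5.59 in aux1 ethylene. It fell by 1.44 ± 0.24 (adjusted p = 0.00321) in aux1, a call lost only in the fit on those 4 arrays, and differed by -0.94 ± 0.24 (adjusted p = 0.0588) in ein2. AT1G62510, of the same family, showed 9.53 and 9.61 in aux1 air and 9.55 and 9.51 in aux1 ethylene, and its difference was -0.04 ± 0.17 (adjusted p = 0.959). In ein2 the same gene fell by 0.76 ± 0.17 (adjusted p = 0.038), from 8.51 and 8.43 to 7.87 and 7.56, a call lost without any of 10 single arrays, those of Col ethylene, aux1 ethylene, Col IAA and ein2. AT3G49190, of the wax ester synthase family, fell by 1.35 ± 0.30 (adjusted p = 0.0335) in ein2, and AT1G30690, a SEC14-type protein that acts in membrane trafficking, fell by 0.68 ± 0.13 (adjusted p = 0.0161). Both calls were lost without any one ein2 array, and that of AT3G49190 also without either Col mock array.

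Enzymes of other metabolism were 11 of the members, with 4 called in aux1, 1 in ein2 and none in both. The largest fall of a member in aux1 was that of AT5G62420, an aldo/keto reductase. It read 5.86 and 6.50 in Col air, 3.05 and 2.68 in Col ethylene, 5.55 and 6.03 in aux1 air and 2.60 and 2.78 in aux1 ethylene. The ethylene arrays lay in the same low range in Col and in aux1, with no overlap with air. It fell by 3.10 ± 0.43 (adjusted p = 0.00103) in aux1, with ethylene levels near background, and the call was kept in every alternative setting. In the auxin experiment it read 5.13 and 4.80 in Col mock, 3.46 and 3.04 in Col IAA, 6.83 and 5.77 in ein2 mock and 6.01 and 4.65 in ein2 IAA, and the ein2 difference was -0.97 ± 0.43 (adjusted p = 0.325) with overlapping groups.

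AT3G32030, of the terpene synthase family, is reported by a probe set of a type (_s_at) that may match related transcripts. It read 5.68 and 5.44 in aux1 air and 3.84 and 2.62 in aux1 ethylene, and fell by 2.33 ± 0.35 (adjusted p = 0.00167), with ethylene levels under 4. The call was lost in the fit on the 4 aux1 arrays (adjusted p = 0.0936). AT2G18620, of the geranylgeranyl diphosphate synthase family that makes terpenoid precursors, read 5.72 and 5.46 and 4.42 and 4.26 and fell by 1.25 ± 0.23 (adjusted p = 0.00621). AT5G38020, a methyltransferase of the SABATH family that methylates small acids, read 7.69 and 8.06 and 6.38 and 5.50 and fell by 1.94 ± 0.45 (adjusted p = 0.0238), a call lost without either aux1 air array or aux1 ethylene replicate 2. In ein2 these 3 genes differed by -0.83 (adjusted p = 0.288), -0.64 (0.199) and -0.10 (0.967). The single metabolic gene called in ein2 was SCPL34, a serine carboxypeptidase-like protein, which fell by 0.88 ± 0.19 (adjusted p = 0.0304) and lost the call without any one ein2 array.

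RNA- and DNA-binding proteins were 5 member probe sets, with 3 called in aux1, 3 in ein2 and 1 in both. That gene was AT1G78260, with an RNA-recognition motif, which fell by 0.68 ± 0.17 in aux1 (adjusted p = 0.0372) and fell by 0.98 ± 0.17 in ein2 (adjusted p = 0.01). It read 8.69 and 8.88 in aux1 air, 8.13 and 8.07 in aux1 ethylene, 8.80 and 8.67 in ein2 mock and 7.91 and 7.60 in ein2 IAA, with no overlap within either mutant. The aux1 call was lost without any one aux1, Col mock or ein2 mock array, and the ein2 call without either ein2 mock array or ein2 IAA replicate 2. Its relative AT1G22330 has 2 probe sets among the members, and both were called in ein2, with differences of -1.07 ± 0.25 (adjusted p = 0.0401) and -0.90 ± 0.17 (adjusted p = 0.0151). Each was lost without ein2 mock replicate 1 or either ein2 IAA array, and the first of them also without ein2 mock replicate 2 or any one aux1 ethylene or Col mock array.

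Members with other roles were 14, of which 4 were called in aux1, 6 in ein2 and 4 in both. AT4G01140 is one of 2 members of the DUF1191 family, whose function is not known. It read 8.47 and 8.62 in Col air, 6.79 and 6.54 in Col ethylene, 8.50 and 8.34 in aux1 air and 7.47 and 7.42 in aux1 ethylene. With mock and IAA it read 8.17 and 8.34 in Col mock, 6.40 and 6.27 in Col IAA, 8.20 and 8.48 in ein2 mock and 6.74 and 6.77 in ein2 IAA. In each pair of groups the treated arrays stood well below the controls, in Col by the choice of members. The 3 untreated genotypes overlapped. AT4G01140 fell by 1.58 ± 0.13 (adjusted p = 3.4e-05) in ein2, a 3.00-fold difference with the smallest adjusted p of any member there, and fell by 0.98 ± 0.13 (adjusted p = 0.000772) in aux1. The ein2 call was kept in every alternative setting, and the aux1 call was lost in the fit on the 4 aux1 arrays (adjusted p = 0.0513). At 1.97-fold, the aux1 difference also falls short of a 2-fold requirement. The other member of the family, AT3G08600, read 7.61 and 7.83 in aux1 air and 6.83 and 6.73 in aux1 ethylene, and fell by 0.94 ± 0.13 (adjusted p = 0.00125). In ein2 it fell by 0.58 ± 0.13 (adjusted p = 0.0404), from 7.46 and 7.66 to 6.82 and 7.15, a call lost in 14 settings, among them median centring and the omission of any of 11 arrays, those of Col ethylene, aux1 ethylene, Col mock, Col IAA and ein2 (for ein2 IAA, replicate 1 only).

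AT3G59370, related to vacuolar calcium-binding proteins, was among the members with high control levels. It read 10.07 and 10.05 in Col air, 7.35 and 6.94 in Col ethylene, 9.69 and 9.77 in aux1 air and 8.50 and 8.26 in aux1 ethylene. In the auxin experiment it read 9.66 and 9.10 in Col mock, 8.09 and 7.77 in Col IAA, 9.35 and 9.14 in ein2 mock and 8.48 and 8.35 in ein2 IAA. No treated array overlapped with its controls, and Col ethylene held the lowest arrays, but low treated levels in Col were favoured by the choice of members. Its level fell by 1.35 ± 0.20 (adjusted p = 0.00133) in aux1, kept in every setting, and fell by 0.83 ± 0.20 (adjusted p = 0.0431) in ein2, a call lost in 14 settings, 12 of them the omission of 1 array: any of Col air, aux1, Col IAA or ein2. AT4G25780, of the CAP family to which the pathogenesis-related protein PR-1 belongs, fell by 1.02 ± 0.24 (adjusted p = 0.0234) in aux1 and fell by 1.08 ± 0.24 (adjusted p = 0.0316) in ein2, at levels that lay above 4 in 7 of 16 arrays. The aux1 call was lost without either aux1 air array or aux1 ethylene replicate 2, and the ein2 call without any one ein2 array. GRX480, a CC-type glutaredoxin that acts with TGA transcription factors, was called in neither mutant, with -0.51 ± 0.34 (adjusted p = 0.482) in aux1 and -0.82 ± 0.34 (adjusted p = 0.277) in ein2.

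AT1G49030 and AT5G60520 had lower levels after IAA in ein2 with little difference after ethylene in aux1. AT1G49030, of the PLAC8 family of small cysteine-rich proteins, read 7.71 and 8.37 in Col air, 6.52 and 6.70 in Col ethylene, 8.25 and 8.64 in aux1 air and 7.98 and 8.33 in aux1 ethylene. It read 8.0 and 8.0 in Col mock, 6.48 and 6.61 in Col IAA, 7.81 and 8.21 in ein2 mock and 6.64 and 6.64 in ein2 IAA. The aux1 groups overlapped, and the ein2 IAA arrays were close to those of Col IAA. It fell by 1.37 ± 0.22 (adjusted p = 0.00473) in ein2, a call lost without ein2 mock replicate 2 (adjusted p = 0.0586), and differed by -0.29 ± 0.22 (adjusted p = 0.538) in aux1. AT3G18450, the other PLAC8 gene among the members, differed by -0.05 ± 0.24 (adjusted p = 0.965) in aux1 and -0.78 ± 0.24 (adjusted p = 0.135) in ein2.

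AT5G60520, a protein related to late embryogenesis abundant proteins, read 9.14 and 9.39 in Col air, 8.25 and 7.98 in Col ethylene, 9.80 and 9.70 in aux1 air and 10.00 and 9.65 in aux1 ethylene. Its other levels were 9.55 and 9.44 in Col mock, 8.36 and 8.43 in Col IAA, 9.42 and 9.86 in ein2 mock and 8.22 and 8.64 in ein2 IAA. Ethylene and air overlapped in aux1, whereas IAA and mock were apart in ein2. The level fell by 1.20 ± 0.19 (adjusted p = 0.00435) in ein2, a call lost without ein2 mock replicate 2 or ein2 IAA replicate 1, and the aux1 difference was 0.07 ± 0.19 (adjusted p = 0.904). AT3G05150, of the sugar transporter family, was called in ein2 as well, where it fell by 1.08 ± 0.20 (adjusted p = 0.0135), and differed by -0.40 ± 0.20 (adjusted p = 0.323) in aux1. This ein2 call was lost without any one ein2 array. The difference between the aux1 and ein2 responses of these genes was not tested.

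Several members without a known role had some of the clearest calls. AT5G62330 read 8.25 and 8.55 in Col air, 6.73 and 7.24 in Col ethylene, 7.99 and 8.14 in aux1 air and 4.89 and 5.57 in aux1 ethylene. The aux1 ethylene arrays were more than 1 below the Col ethylene arrays. In aux1 it fell by 2.83 ± 0.21 (adjusted p = 1.34e-05), a 7.12-fold difference and the smallest adjusted p of any member there, kept in every setting. The ein2 difference was -0.47 ± 0.21 (adjusted p = 0.33). AT5G02000 read 5.69 and 5.64 in ein2 mock and 4.24 and 3.84 in ein2 IAA, and fell by 1.62 ± 0.21 (adjusted p = 0.00109), kept in every setting. In aux1 it fell by 0.80 ± 0.21 (adjusted p = 0.0422), a call lost in 15 settings, 10 of them the omission of 1 array of Col ethylene, aux1, Col IAA or ein2 mock. AT2G17300 fell by 1.05 ± 0.20 (adjusted p = 0.00721) in aux1 and fell by 1.23 ± 0.20 (adjusted p = 0.005) in ein2. Its calls were lost without aux1 air or aux1 ethylene replicate 2, and without ein2 IAA replicate 1.

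Other members at the extremes of these differences included AT3G24750, which fell by 0.89 ± 0.19 (adjusted p = 0.0166) in aux1 and fell by 1.02 ± 0.19 (adjusted p = 0.0139) in ein2. Its aux1 call was lost in 4 settings, 2 of them the omission of 1 aux1 array, and its ein2 call without any one ein2 array. AT4G11020 fell by 1.52 ± 0.34 (adjusted p = 0.0201) in aux1, a call lost without either aux1 air array or aux1 ethylene replicate 1, and differed by -0.63 ± 0.34 (adjusted p = 0.464) in ein2. AT1G67910 read 6.54 and 7.29 in aux1 air and 5.79 and 5.78 in aux1 ethylene and fell by 1.13 ± 0.23 (adjusted p = 0.0106), a call lost without aux1 air replicate 2 or either aux1 ethylene array. In ein2 its groups overlapped, with a difference of -0.10 ± 0.23 (adjusted p = 0.931). AT1G50590, of the pirin type of cupins, differed by 0.03 ± 0.28 (adjusted p = 0.988) in ein2, and AT1G10810, an aldo/keto reductase, by 0.25 ± 0.29 (adjusted p = 0.73) in aux1, both with overlapping groups. AT2G26390, a serpin (a class of protease inhibitors), read 6.80 and 6.97 in aux1 air and 5.22 and 6.33 in aux1 ethylene without overlap, and its difference of -1.11 ± 0.35 (adjusted p = 0.0876) did not pass.

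The 70 members without a gene in the annotation were called about as often: 25 were called lower in aux1 and 29 in ein2, beside 27 and 26 of the 70 with 1 locus. Among them, probe set 247940_at fell by 2.16 ± 0.19 in aux1 (adjusted p = 5.3e-05) and 254294_at fell by 2.01 ± 0.22 in ein2 (adjusted p = 0.000375). Both fell to levels under 4: the first read 3.01 and 3.18 in aux1 ethylene, the other 3.19 and 3.85 in ein2 IAA. Probe set 263876_at fell by 0.63 ± 0.11 in aux1 (adjusted p = 0.00351) and by 1.07 ± 0.11 in ein2 (adjusted p = 0.000149). The effect of leaving out single arrays was examined for the members with 1 locus and for the counts, and not for these 3 probe sets.

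Gene families were also listed by name, 31 in all, of which 17 had a tested probe set with a matching name, because most loci of this annotation carry a code and no name. Members known only by a code, among them AT3G05150, AT3G10080 and AT3G22070, cannot match a list by name, so the lists cover part of each family. By name, 2 of the lists held a member. Of 15 tested glycosyl hydrolases, GH9B13 and BGLU28, a beta-glucosidase, were members. In aux1, 2 of the 15 were called lower, GH9B13 and GH9C2, and 1 higher, BGLU24. In ein2 GH9B13 was called lower and GH9C2 higher, by 0.53 ± 0.13 (adjusted p = 0.0457). GH9C2, an endoglucanase of the same family as GH9B13, is not a member: it differed by -0.36 after ethylene and by 1.17 after IAA in Col, and fell by 1.76 ± 0.13 in aux1 (adjusted p = 1.13e-05). Of 6 tested calcium-binding genes, CML38 was a member and was called in neither mutant, while CML42 was called lower in ein2, where it fell by 0.48 ± 0.10 (adjusted p = 0.0208). CML38 is a calmodulin-like protein induced by wounding and low oxygen, and its levels rest on 1 array of each Col control: it read 5.77 and 3.74 in Col air and 5.68 and 4.53 in Col mock.

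Levels in the untreated mutants are given without a test, because the Col air and Col mock arrays chose the members and a high Col control favours both selection and a low mutant value beside it. In aux1 air the members stood slightly below Col air, with a median difference of -0.12 beside 0.01 for all probe sets, and 90 of 144 (62.5%) were below 0, against 47.1% of all. Both aux1 air arrays lay below both Col air arrays for 42 members (14.6% of all probe sets did so), and above them for 23 (17.6%). In ein2 mock the median difference was 0.14 beside 0.03 for all, and 93 of 144 members (64.6%) were above 0, against 54.3% of all. Both ein2 mock arrays lay above both Col mock arrays for 60 members (33.3% of all probe sets), and below them for 23 (26.6%). A combination of lower in aux1 and higher in ein2 was the most frequent, with 53 members, beside 40 higher in both, 37 lower in both and 14 higher in aux1 and lower in ein2. These are the directions of means and not calls, and the share of all probe sets with each combination was not determined.

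A few members stood far above Col in untreated ein2. AT3G26460, of a family of lipid-binding proteins, read 5.75 and 6.81 in Col mock, 9.21 and 9.64 in ein2 mock and 8.78 and 9.77 in ein2 IAA, a base difference of 3.14. AT5G37990, a SABATH methyltransferase, read 7.31 and 7.78 in Col mock, 10.25 and 10.43 in ein2 mock and 9.92 and 10.74 in ein2 IAA, a base difference of 2.79. AT1G14120, a 2-oxoglutarate oxygenase, read 6.84 and 7.28 in Col mock and 9.12 and 8.78 in ein2 mock, a base difference of 1.89. In all 3 the ein2 arrays were above every Col array of the auxin experiment. With IAA their ein2 differences were -0.15 ± 0.41 (adjusted p = 0.941), -0.01 ± 0.42 (adjusted p = 0.998) and -0.21 ± 0.37 (adjusted p = 0.904), with overlapping groups. Of the members with 1 locus, AT5G38020 and AT5G62420 followed with base differences of 1.35 and 1.33. Probe sets 250474_at and 252415_at, with no named gene, stood 2.12 and 1.56 above Col. At least 1 above Col were 12 members in ein2 mock (2.65% of all probe sets) and none in aux1 air (0.758%).

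Other members stood below Col in untreated mutants. The lowest base difference in aux1, -1.53, was that of AT1G68620, an alpha/beta hydrolase. It read 7.83 and 5.88 in Col air and 4.33 and 6.33 in aux1 air, so that replicates were far apart and the groups overlapped. Probe set 249037_at followed with -1.50. AT1G73120 read 7.20 and 7.47 in Col air and 6.36 and 5.62 in aux1 air, and 6.32 and 5.54 in Col mock and 4.30 and 4.43 in ein2 mock. Its base differences were -1.35 in aux1 and -1.57 in ein2, and neither treatment was called in a mutant. CML38 had base differences of -1.04 and -1.24, with the Col control arrays far apart as given above. GRX480 was -1.03 from Col in aux1 air and 0.91 in ein2 mock. AT4G31330 was -1.08 from Col in ein2 mock, and AT3G28750, whose levels were near background, -0.91 in aux1 air. At least 1 below Col were 5 members in aux1 air (0.674% of all probe sets) and 8 in ein2 mock (2.14%). Among the 8, probe sets 264474_s_at and 255997_s_at have the lowest values, -3.68 and -3.91, and their Col mock mean includes the single high array described above.

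**Figure D5:**
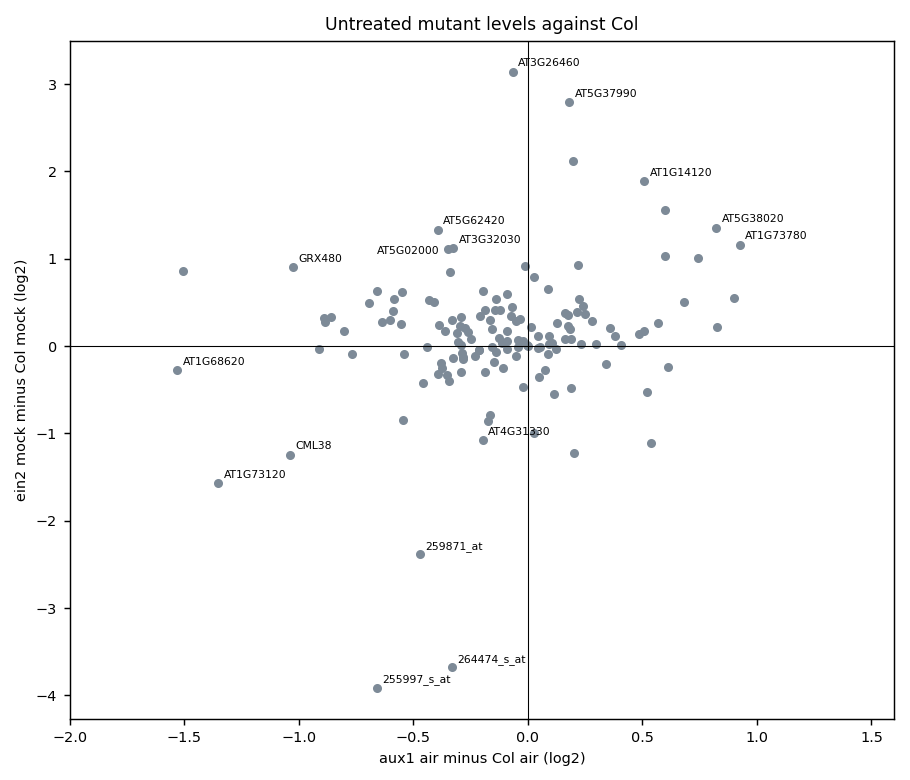
Level of each member in the untreated mutants minus Col, as differences of log2 means: aux1 air minus Col air on the horizontal axis and ein2 mock minus Col mock on the vertical axis. Of the 144 points, 53 lie left of 0 and above 0, the fullest of the 4 fields, and the labelled AT3G26460 and AT5G37990 are the highest in ein2.

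Treated mutants were also set beside treated Col, again without a test. In ethylene, aux1 stood above Col for 116 of 144 members, with a median difference of 0.42 beside -0.01 for all probe sets. In IAA, ein2 stood above Col for 122 members, with a median difference of 0.43 beside -0.01. The lowest and highest of these differences were -1.75 and 3.59 in aux1 and -0.63 and 3.73 in ein2. The members were selected for low treated Col levels, and the part of that selection in these differences was not tested.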

How the data were processed

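Total RNA of roots was labelled and hybridised to 16 one-colour Affymetrix arrays of 22810 probe sets, 64 of them controls. The authors deposited 1 log2 expression value per probe set and array. The submitters' processing notes name GCRMA, which corrects background, normalizes and summarises probes. Its version and settings, and the arrays normalized together, are not given in the sources used here. That the scale is log2 follows from the range of the values, which entered the tests unchanged. Precision is limited by the number of arrays.

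Group means were fitted to all 16 arrays with limma 3.58.1 (R 4.3.3), with 8 residual and 3.36 prior degrees of freedom. Tests were two-sided, with Benjamini-Hochberg adjustment over the 14244 probe sets above 4 in at least 2 arrays, and called at an adjusted p under 0.05. Errors are moderated standard errors of differences of log2 means with n = 2 arrays per group. The script was tested on simulated data. Genes were named by a fixed rule: the lowest and highest differences in Col, aux1 and ein2, the extreme base levels, the members nearest the limit and those with a symbol. Genes named outside it (AT3G08600, AT3G22070, AT3G18450, AT3G47380, AT1G22330, AT1G30690, AT3G05150, and the probe sets without a locus) were chosen after their values were seen. The members, lists and alternatives were chosen with earlier results of these data known. Alternatives changed the filter, the scaling, the variance model, the arrays fitted, the rule's limit, a replicate block and single arrays left out. Promoter motifs were not analysed here.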

Additional observations from a re-analysis of the deposited data

Results flagged for a closer look

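For 3 members both aux1 ethylene arrays lay above both aux1 air arrays, while both Col ethylene arrays lay below both Col air arrays. The difference between the genotypes was not tested. AT2G41810 differed by 1.42 ± 1.24 in aux1 (limma, adjusted p = 0.616) and by -2.51 in Col. Probe set 249895_at, with no named gene, differed by 0.92 ± 0.55 in aux1 (adjusted p = 0.413) and by -0.91 in Col. None of its 4 Col arrays in the ethylene experiment exceeded 4, and it met the condition on low values only with mutant arrays, among them the aux1 ethylene arrays at 4.58 and 5.32, so its direction in aux1 is not independent of how it was chosen. Probe set 246844_at, also with no named gene, differed by 0.15 ± 0.14 in aux1 (adjusted p = 0.643) and by -0.78 in Col. None of the 3 aux1 differences passed in the main fit. That of AT2G41810 passed with the replicate number as a block (limma, adjusted p = 0.0476), but no statement says that a number marks a shared batch. With 2 arrays in a group, the groups of 19.3% of all probe sets were ordered in this way in aux1.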

How the results depend on the processing

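The main counts were 55 members called lower in aux1, 56 in ein2 and 28 in both. Of all probe sets, 541 were called lower in aux1 and 185 in ein2. Without a filter, when 22746 probe sets were tested, aux1 gave 40 members, ein2 37 and both mutants 18. Of all probe sets, 464 and 190 were then called lower in aux1 and ein2. A fit on the 8 arrays of 1 experiment gave 30 in aux1, 60 in ein2 and 12 in both, with 243 and 226 of all probe sets called lower. A fit on the 4 arrays of a mutant contrast gave 15 in aux1, 40 in ein2 and 2 in both. In all, 88 probe sets were then called lower in aux1 and 107 in ein2. Requiring a difference of at least 2-fold gave 28, 29 and 5. Restricting the count to members with 1 locus, an alternative chosen after seeing the data, gave 27 and 26. A limit of -1 in the rule left 60 members, with a median ein2 difference of -0.87. Replicate numbers are shared between groups, and the deviations of arrays with the same number correlated at 0.275 to 0.414 between control and treated groups. With 2 numbers and no statement that a number marks a shared batch, they were not taken as pairs. With the replicate number as a block, 72 members were called in aux1, 73 in ein2 and 43 in both. The calls over all probe sets rose too, to 840 lower in aux1 and 342 in ein2. Leaving out single arrays gave 25 to 55 in aux1, 20 to 57 in ein2 and 9 to 29 in both. The members then numbered 136 to 157, and their medians ranged from -0.72 to -0.61 in aux1 and from -0.73 to -0.69 in ein2. Median centring, quantile normalization, a filter at 6, an intensity trend and 1 probe set per locus kept each count within 1.5 times. No call of the main fit on a member with 1 locus became a call in the opposite direction. AT2G41810, not called in the main fit, was called higher in aux1 with the replicate block (1.42, limma, adjusted p = 0.0476). In the same setting it was called lower in ein2 (-1.64, adjusted p = 0.043). Of the calls of members with 1 locus, 4 of 27 in aux1 and 3 of 26 in ein2 were kept in every setting. Of those not called, 17 of 43 in aux1 and 14 of 44 in ein2 gained a call in at least 1 setting, among them AT5G51520 in ein2 with the replicate block (adjusted p = 0.00258). Members above 4 on at least 2 Col arrays, also chosen after seeing the data, gave 55, 55 and 28. With 2 arrays per group, small differences could not be detected, and a member not called is not shown to be unaffected.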
